A study of Mus musculus with 6 samples.

Results

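The 10 genes described here encode mechanosensitive or store-operated calcium channels and their partners: *Piezo1*, *Piezo2*, *Trpc1*, *Trpv2*, *Trpv4*, *Trpm7*, *Stim1*, *Stim2*, *Orai1* and *Tmem63b*. They were taken by symbol from a count table of 20654 genes, and all 10 had a row in it. The question was which calcium entry genes other than *Piezo1* are transcribed in muscle satellite cells (MuSCs), and whether the transcripts of any of them are more abundant where *Piezo1* was targeted.

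MuSCs regenerate muscle fibres as its resident stem cells. They were profiled by RNA-seq in 6 libraries, 3 labelled wild type (called control here) and 3 labelled *Piezo1* cKO. All mice had a C57BL/6 background. The study gives the controls of the RNA-seq as *Pax7*CreERT2/+ and the cKO as *Piezo1* flox/flox; *Pax7*CreERT2/+, so that both groups carried a tamoxifen-inducible Cre driven from *Pax7* and recombination was limited to cells that express *Pax7*. MuSCs were isolated by FACS as VCAM1-positive cells negative for Sca1, CD31 and CD45, and were cultured for 3 d in growth medium on Matrigel with 1 µM 4-hydroxytamoxifen in both groups. The labels do not tie the libraries to separate animals, so the p-values below measure the spread between these libraries, which may in part be technical. For ex vivo work the study also injected mice with tamoxifen daily before isolation, and the age of the mice was not given in the labels.

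Calcium enters a cell through channels that open in response to different signals. PIEZO proteins are large channels gated directly by membrane tension, TMEM63 proteins belong to the family of osmosensitive and stretch-activated channels, and several TRP channels respond to osmotic, thermal or mechanical stimuli or to lipids. In store-operated calcium entry, STIM proteins sense the loss of calcium from the endoplasmic reticulum and open ORAI pores in the plasma membrane, a route known in skeletal muscle for refilling the stores and for its role in myoblast differentiation.

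The method of library making decides which part of a transcript is seen, so the sequences that define it are shown first. Each cDNA was started from an oligo-dT primer that holds a barcode for its library and a run of random bases, the unique molecular identifier or UMI, by which PCR copies of 1 molecule are recognised. The primer of control library 1 is written 5′ to 3′, with the 10 bases of its barcode and the 8 random bases of its UMI in capitals and without the 2 degenerate bases at its 3′ end.
RT primer, control library 1: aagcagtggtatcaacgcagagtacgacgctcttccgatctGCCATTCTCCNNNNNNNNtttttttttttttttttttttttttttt
The run of T bases in this primer pairs with the poly(A) tail, so counts come from near the 3′ end of a transcript. The RT-PCR primers for *Piezo1* mRNA lie elsewhere in the transcript, and are shown for that contrast, in lower case throughout.
qPCR forward: atcctgctgtatgggctgac
qPCR reverse: aagggtagcgtgtgtgttcc
Both primers matched exon 12 of the 51 exons of a *Piezo1* transcript of 8219 bases (GRCm38, minus strand), the forward one at chr8:122499755-122499774 and the reverse one at chr8:122499648-122499667. They bound an amplicon of 127 bases, and the reverse primer site ended 6373 bases before the 3′ end of the transcript. A schematic of the floxed allele in the study places the targeted exons inside the gene, away from its 3′ end. Tags near the 3′ end then lie outside the deleted part, so the *Piezo1* counts here do not show directly whether those exons were deleted. Whether the RT-PCR amplicon lies in the targeted exons was not determined. An effect of the deletion on the level of the whole transcript was not tested.

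The libraries held 740936, 931168 and 891531 counts in control, against 810096, 726378 and 769295 in *Piezo1* cKO. At this depth, a gene with 3 counts in a library, the floor used here, had from 3.22 to 4.13 CPM, that is, counts scaled to a common library size. The 10 genes together held 1027 counts over the 6 libraries, 529 in control and 498 in *Piezo1* cKO, and *Stim2* and *Trpm7* held 59.1% of them. A gene was tested with edgeR's quasi-likelihood test if it passed a filter on low counts, and was called if its adjusted p was under 0.05 after Benjamini-Hochberg adjustment over all 8551 genes tested. Of the 10 genes, *Stim2*, *Trpm7*, *Orai1*, *Tmem63b* and *Stim1* passed the filter, whereas *Piezo1*, *Trpv2*, *Trpc1*, *Piezo2* and *Trpv4* did not and were read from a second edgeR fit on all 19247 genes with at least 1 count. None of the 10 was called, against a background of 0.784% of the genes tested and 0.67% of the genes in the fit with no filter. Of the 5 that passed the filter, 0 had an unadjusted p under 0.05, where 11.9% of all genes tested did, and limma-voom also called 0. DESeq2 called 0 as well, but gave an adjusted p only for *Stim2* and *Trpm7* and none for the other 8, so no call was possible for them there. In cultures such as these, fewer cells of a type and less RNA per cell cannot be told apart.

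**Figure D1:**
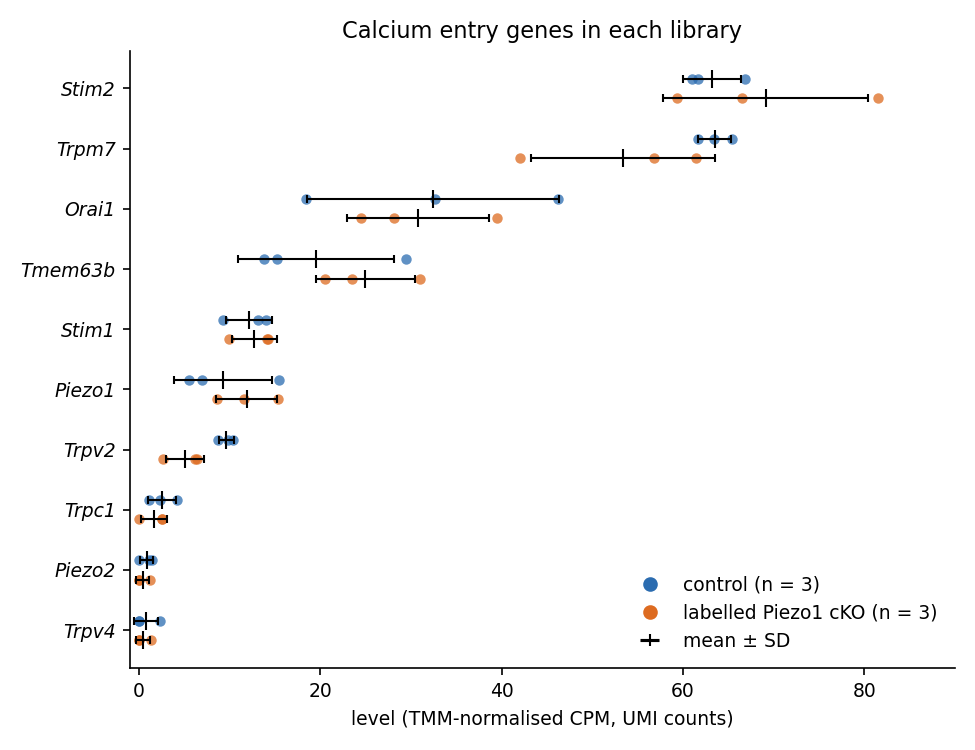
Level of each of the 10 genes in every library, as TMM-normalised CPM of UMI counts on a linear axis. Blue points are the 3 control libraries, orange points the 3 libraries labelled *Piezo1* cKO, and black marks the mean ± SD of a group; the groups are apart for *Trpm7* and *Trpv2* only, and *Trpc1*, *Piezo2* and *Trpv4* sit near 0.

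*Stim2* and *Trpm7* were the most abundant of the 10 genes on the CPM scale, at 66.2 ± 8.10 and 58.4 ± 8.55 CPM (mean ± SD over 6 libraries), which placed *Stim2* above 80.8% of the genes with at least 1 count. They were followed by *Orai1* at 31.6 ± 10.1 CPM, *Tmem63b* at 22.2 ± 7.10 CPM, *Stim1* at 12.4 ± 2.26 CPM, *Piezo1* at 10.6 ± 4.26 CPM and *Trpv2* at 7.34 ± 2.90 CPM. *Trpc1* at 2.10 ± 1.43 CPM, *Piezo2* at 0.621 ± 0.688 CPM and *Trpv4* at 0.599 ± 0.982 CPM were below the level of 3 counts. In each of the 9 neighbouring pairs of this order the ranges over the libraries overlapped, but *Trpm7* was above *Orai1*, *Tmem63b* above *Stim1*, and *Trpv2* above *Trpc1* within every one of the 6 libraries. A UMI marks 1 molecule at its 3′ end and does not scale with transcript length. When the CPM was nevertheless divided by transcript length, the order of levels per kb was *Orai1*, *Stim2*, *Trpm7*, *Tmem63b*, *Stim1*, *Trpv2*, *Piezo1*, *Trpc1*, *Trpv4* and *Piezo2*, with 16.9 CPM per kb for *Orai1*, 13.4 for *Stim2*, 8.22 for *Trpm7* and 1.29 for *Piezo1*. On both scales, *Stim2*, *Trpm7* and *Orai1* took the first 3 places and *Piezo1* the sixth or the seventh.

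*Piezo1* (GRCm38 chr8:122481698-122551329, minus strand) encodes the stretch-gated channel that the study targeted. It had 11, 5 and 6 counts in control libraries 1 to 3, against 7, 12 and 9 in *Piezo1* cKO. The groups overlapped, and control library 1 was the highest of all at 15.4 CPM, next to *Piezo1* cKO library 2 at 15.4 CPM. The mean level was 9.26 ± 5.38 CPM in control and 11.9 ± 3.36 CPM in *Piezo1* cKO (SD, n = 3 each), a ratio of pooled counts of 1.34 with an exact 95% interval from 0.741 to 2.46 that covers counting error only. In the edgeR fit with no filter, the log2 fold change was 0.41 (SE 0.46, adjusted p = 0.736). The label *Piezo1* cKO thus went with no lower level of *Piezo1* 3′ tags, and no direction below rests on these counts as a check of the labels. By other measures in cultured MuSCs, RT-qPCR and the calcium response to a PIEZO1 agonist, the study reported the deletion as effective. The last 1000 bases of *Piezo1* overlap *Gm20388* and *Ctu2* on the opposite strand. *Gm20388* was not analysed here, and *Ctu2* had 30, 46 and 37 counts in control and 34, 30 and 31 in *Piezo1* cKO. The strand setting of the counting was not given in the sources used here, so reads of these genes may not have been told apart and the *Piezo1* level is uncertain. No such overlap was found at the 3′ end of the other genes whose position was looked up.

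*Piezo2*, the paralogue best known for touch and proprioception in sensory neurons, had 1, 1 and 0 counts in control and 1, 0 and 0 in *Piezo1* cKO. Both groups had 3 counts or fewer in total, so no fold change is given. Pooled over the 6 libraries, its level was 0.617 CPM with an exact Poisson 95% interval from 0.127 to 1.80 CPM. *Piezo1* held 94.3% of the 53 counts of the 2 PIEZO genes (exact Clopper-Pearson 95% interval 84.3 to 98.8%). A level of *Piezo2* comparable to that of *Piezo1* in either group was thus not seen, and in the libraries labelled *Piezo1* cKO *Piezo2* had 1 count against 28 for *Piezo1*.

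Among the TRP genes, *Trpm7* (chr2:126791565-126876230, minus strand) encodes a broadly expressed channel for magnesium, calcium and zinc that is fused to a protein kinase. It had 61.7, 65.4 and 63.4 CPM in control and 42.0, 61.4 and 56.8 CPM in *Piezo1* cKO, from 34 to 60 counts per library. All 3 libraries labelled *Piezo1* cKO were below all 3 controls, but the gap between the highest of them and the lowest control, 61.4 against 61.7 CPM, was smaller than the spread within either group, and *Piezo1* cKO library 1 was well below the rest. The mean was 63.5 ± 1.85 CPM in control and 53.4 ± 10.1 CPM in *Piezo1* cKO (SD, n = 3 each), and the log2 fold change was -0.25 (SE 0.21, 95% interval -0.66 to 0.17, edgeR adjusted p = 0.694). The separation was not present when libraries were scaled by total counts or by DESeq2 size factors.

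*Trpv2* (chr11:62574486-62600515, plus strand), a channel of the vanilloid subfamily linked to stretch responses in muscle, had 7, 8 and 9 counts in control and 5, 5 and 2 in *Piezo1* cKO. Every library labelled *Piezo1* cKO was again below every control, and *Piezo1* cKO library 3 was the lowest at 2.58 CPM. The mean was 9.64 ± 0.842 CPM in control and 5.05 ± 2.14 CPM in *Piezo1* cKO (SD, n = 3 each), with a ratio of pooled counts of 0.528 (exact 95% interval 0.241 to 1.098, counting error only). The edgeR fit with no filter gave a log2 fold change of -0.90 (SE 0.56, unadjusted p = 0.106, adjusted p = 0.725). For *Trpm7* and *Trpv2* the two-sided exact permutation p was 0.1, the smallest that 3 libraries against 3 can give. Of the 10 genes, these 2 had groups that did not overlap, both lower in *Piezo1* cKO, whereas groups without overlap made up 16.4% of the genes tested in either direction (8.56% lower) and 11% of all genes with at least 1 count (5.01% lower). A count of 2 in 10 is too small to set these genes apart from that background.

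*Trpc1* (chr9:95705082-95750375, minus strand), a canonical TRP channel described in stretch-activated and store-operated currents, had 3, 1 and 2 counts in control and 2, 2 and 0 in *Piezo1* cKO. The groups overlapped, and the ratio of pooled counts was 0.704 with an exact 95% interval from 0.146 to 2.97, and a change within these bounds was not detectable at this depth. *Trpv4* (chr5:114622152-114658421, minus strand), an osmosensitive channel, had 0, 0 and 2 counts in control and 0, 0 and 1 in *Piezo1* cKO. With 3 counts or fewer in total in each group, no fold change is given for *Trpv4*. Its pooled level was 0.617 CPM (exact Poisson 95% interval 0.127 to 1.80 CPM). The 4 TRP genes summed to 75.7, 75.2 and 78.4 CPM in control and to 50.6, 70.4 and 60.7 CPM in *Piezo1* cKO, a sum made up mostly of *Trpm7*. The groups of this sum did not overlap with TMM or DESeq2 size factors. With total counts they overlapped (control library 1 at 72.9 and *Piezo1* cKO library 2 at 75.7 CPM). Its ratio of pooled counts, with library totals scaled by TMM, was 0.791 (exact 95% interval 0.632 to 0.987, counting error only). The ratio was not computed with unscaled totals.

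*Stim1* and *Stim2* encode the calcium sensors of the endoplasmic reticulum, of which STIM2 responds to smaller losses of stored calcium. *Stim2* (chr5:53998499-54121057, plus strand) had 61.7, 61.0 and 66.9 CPM in control and 81.5, 66.5 and 59.4 CPM in *Piezo1* cKO, from 44 to 66 counts per library. The groups overlapped, with *Piezo1* cKO libraries 1 and 3 as the highest and the lowest of the 6. The mean was 63.2 ± 3.19 CPM in control and 69.1 ± 11.3 CPM in *Piezo1* cKO (SD, n = 3 each), and the log2 fold change was 0.14 (SE 0.20, 95% interval -0.25 to 0.53, edgeR adjusted p = 0.856). *Stim1* (chr7:102267806-102437319, plus strand) had 10, 12 and 8 counts in control and 8, 11 and 11 in *Piezo1* cKO, which overlapped. Its mean was 12.1 ± 2.54 CPM in control and 12.7 ± 2.46 CPM in *Piezo1* cKO (SD, n = 3 each), with a log2 fold change of 0.08 (SE 0.41, 95% interval -0.73 to 0.90, edgeR adjusted p = 0.963). *Stim2* held 84.3% of the 382 counts of the 2 STIM genes (exact Clopper-Pearson 95% interval 80.2 to 87.8%). This share was 83.9 ± 3.47% in control and 84.1 ± 4.47% in *Piezo1* cKO (SD, n = 3 each; two-sided exact permutation p = 0.9).

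*Orai1* (chr5:123015074-123030456, plus strand) encodes the best known pore of store-operated entry. It had 33, 30 and 16 counts in control and 32, 22 and 19 in *Piezo1* cKO, and the controls alone covered the whole range, from 18.4 to 46.3 CPM. The mean was 32.5 ± 13.9 CPM in control and 30.7 ± 7.82 CPM in *Piezo1* cKO (SD, n = 3 each), with a log2 fold change of -0.04 (SE 0.28, 95% interval -0.61 to 0.52, edgeR adjusted p = 0.971). By counts, the family was led by *Orai2*, with 75.5% of the 1092 counts of the 3 ORAI genes (exact Clopper-Pearson 95% interval 72.8 to 78.0%), against 13.9% for *Orai1* (11.9 to 16.1%). The *Orai1* share was 15.0 ± 4.91% in control and 12.9 ± 3.85% in *Piezo1* cKO (SD, n = 3 each; two-sided exact permutation p = 0.8). The 3 store-operated genes of the set summed to 122, 107 and 94.5 CPM in control and to 131, 109 and 98.1 CPM in *Piezo1* cKO, with overlapping groups.

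*Tmem63b* (chr17:45660171-45686905, minus strand) encodes a stretch-activated cation channel of the TMEM63 family. It had 21, 14 and 12 counts in control and 19, 16 and 24 in *Piezo1* cKO. The groups overlapped because control library 1, at 29.4 CPM, was above 2 of the 3 libraries labelled *Piezo1* cKO, which had 23.5, 20.5 and 31.0 CPM. The mean was 19.5 ± 8.63 CPM in control and 25.0 ± 5.42 CPM in *Piezo1* cKO (SD, n = 3 each), and the log2 fold change was 0.40 (SE 0.32, 95% interval -0.24 to 1.04, edgeR adjusted p = 0.677). *Tmem63b* held 44.0% of the 241 counts that it shared with its paralogue *Tmem63a* (exact Clopper-Pearson 95% interval 37.6 to 50.5%), at 39.3 ± 15.1% in control and 49.9 ± 8.62% in *Piezo1* cKO (SD, n = 3 each; two-sided exact permutation p = 0.3).

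The low counts set what could have been seen. A gene was called in the edgeR fit if its unadjusted p was at most 0.000371, and from its own standard error *Stim2* would have needed a 1.66-fold difference, *Trpm7* 1.71-fold, *Orai1* 2.08-fold, *Tmem63b* 2.29-fold and *Stim1* 2.86-fold. The 95% intervals of the fold change in *Piezo1* cKO against control ran from 0.839 to 1.44 for *Stim2*, from 0.632 to 1.12 for *Trpm7*, from 0.657 to 1.43 for *Orai1*, from 0.845 to 2.05 for *Tmem63b* and from 0.602 to 1.86 for *Stim1*. For the genes below the filter, the intervals were 0.705 to 2.49 for *Piezo1*, 0.250 to 1.14 for *Trpv2* and 0.172 to 2.98 for *Trpc1*. A doubling thus lay above the interval for *Stim2*, *Trpm7*, *Orai1*, *Stim1* and *Trpv2* and within it for *Tmem63b* and *Trpc1*, and a rise that lay within its interval could not be told from none. These limits concern mRNA near the 3′ end, and channel protein and calcium currents were not measured by RNA-seq.

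**Figure D2:**
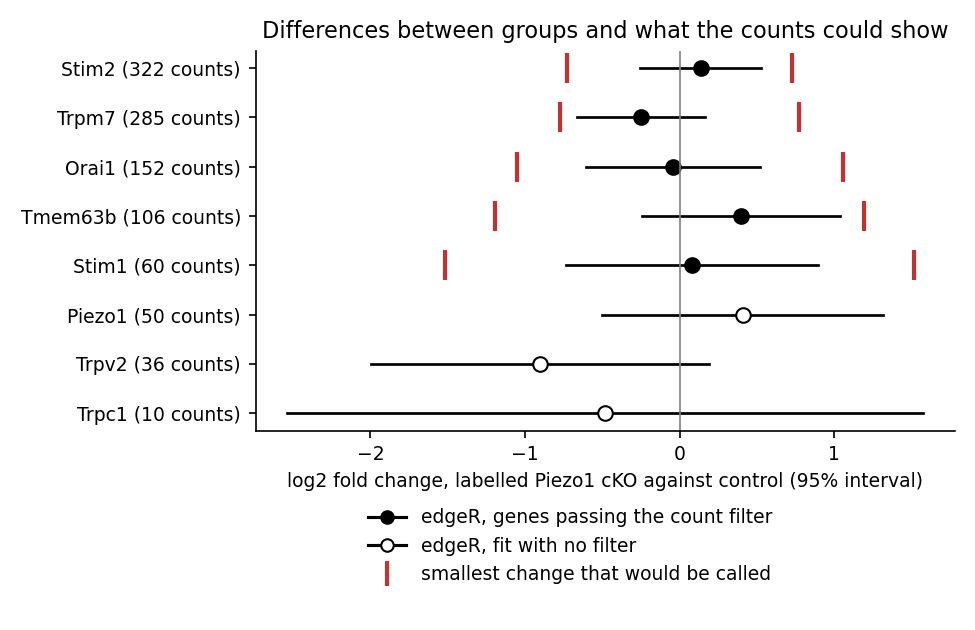
Log2 fold change of libraries labelled *Piezo1* cKO against control for the 8 genes with a fold change, as points with 95% intervals (horizontal axis, log2 scale), with the counts of each gene over 6 libraries beside its name. Filled points come from the edgeR fit of genes past the filter and open points from the fit with no filter, and red ticks mark the smallest change that would have been called; all 8 intervals include 0 and all 5 filled points lie between their ticks.

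Without *Piezo1*, the other 9 genes summed to 229, 198 and 187 CPM in control and to 206, 200 and 190 CPM in *Piezo1* cKO, which overlapped. The mean sum was 205 ± 21.6 CPM in control and 199 ± 8.29 CPM in *Piezo1* cKO (SD, n = 3 each). The median log2 fold change of the 5 genes that passed the filter was 0.08, beside 0.0021 over all genes tested, with 3 above 0 and 2 below.

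The rest of the calcium machinery was read from 8 lists, which besides the 10 genes above held 116 genes, of which 92 had a row and 43 were tested. None of the 43 was called by edgeR, and limma-voom called 1, the voltage-gated channel gene *Cacng1*. DESeq2 called 0, but gave an adjusted p for only 19 of them. By edgeR, 7 of the 43 had an unadjusted p under 0.05 (16.3%), against 11.9% of all genes tested. The log2 fold change was above 0 for 29 of them (67.4%, against 50.2% of all genes tested) and below 0 for 14, with a median of 0.07 against 0.0021. Groups did not overlap for 25.6% of the 43, against 16.4% of all genes tested, and of these 8 were higher and 3 lower in *Piezo1* cKO.

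Partners of PIEZO channels were represented by *Tmem30a* and *Atp11a*, a subunit and a catalytic member of the phospholipid flippases, and by *Mdfic*, which encodes an auxiliary subunit of PIEZO channels. The level of *Mdfic* was 23.8 ± 2.50 CPM in control and 31.3 ± 0.611 CPM in *Piezo1* cKO (SD, n = 3 each; log2 fold change 0.41, SE 0.28, edgeR adjusted p = 0.608), and that of *Tmem30a* was 121 ± 13.3 and 142 ± 9.97 CPM (edgeR adjusted p = 0.573). For both, each library labelled *Piezo1* cKO was above each control. *Atp11a* had 39.2 ± 13.5 CPM in control and 42.3 ± 7.30 CPM in *Piezo1* cKO. Of other mechanosensitive channel genes, *Tmem63a* had 29.5 ± 6.38 and 25.3 ± 7.05 CPM and *Kcnk2*, which encodes the stretch-sensitive potassium channel TREK-1, had 12.1 ± 4.75 and 18.6 ± 1.15 CPM, in control and *Piezo1* cKO respectively, and in both the groups overlapped.

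The TRP family had 28 genes in its list and 19 in the table. *Mcoln1*, *Trpm7* and *Pkd2* held 87.8% of the 920 counts of these 19 genes and were the only ones past the filter. *Mcoln1*, which encodes a calcium-permeable channel of lysosomes, had 57.5, 62.1 and 80.7 CPM in control and 92.6, 93.4 and 89.1 CPM in *Piezo1* cKO. The groups did not overlap, with a log2 fold change of 0.46 (SE 0.18, edgeR unadjusted p = 0.0148, adjusted p = 0.260). *Pkd2*, which encodes the polycystin-2 cation channel, had 25.2, 46.9 and 26.5 CPM in control and 24.7, 20.5 and 23.2 CPM in *Piezo1* cKO. Its groups did not overlap either, but control library 2 was far above the other 5 (log2 fold change -0.54, SE 0.29, edgeR adjusted p = 0.451), and without that library the log2 fold change of *Pkd2* was -0.17 (edgeR adjusted p = 0.934).

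**Figure D3:**
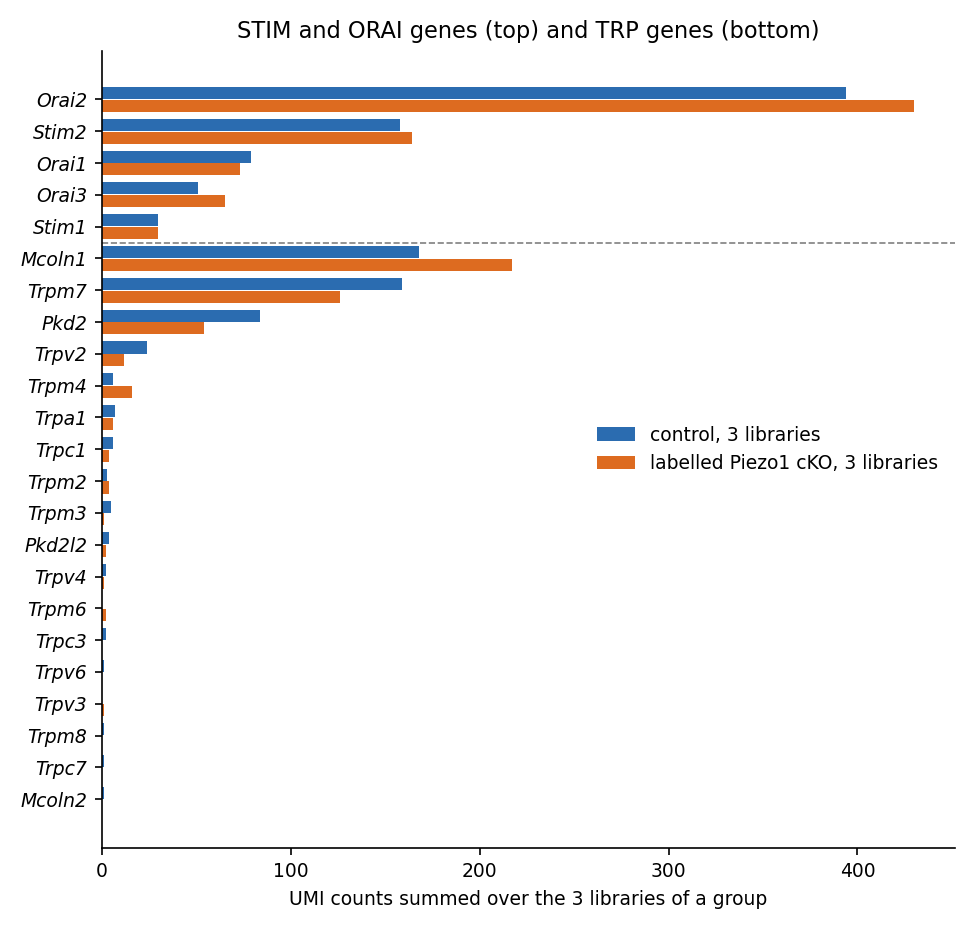
UMI counts summed over the 3 libraries of each group (horizontal axis, linear from 0) for the STIM and ORAI genes above the dashed line and the TRP genes with at least 1 count below it. Blue bars are control and orange bars libraries labelled *Piezo1* cKO; counts are concentrated in *Orai2*, *Stim2*, *Mcoln1*, *Trpm7* and *Orai1*.

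In the store-operated list, 9 of 11 genes were tested. *Orai2* had 159 ± 17.0 CPM in control and 182 ± 16.7 CPM in *Piezo1* cKO (SD, n = 3 each; log2 fold change 0.20, SE 0.15, edgeR adjusted p = 0.618), with overlapping groups. *Orai3* had 20.5 ± 1.75 and 27.5 ± 5.44 CPM, with all libraries labelled *Piezo1* cKO above all controls (edgeR adjusted p = 0.610). *Saraf*, an inhibitor of store-operated entry, had 150 ± 19.7 and 156 ± 24.0 CPM, which overlapped. *Esyt1*, a tether between the endoplasmic reticulum and the plasma membrane, had 88.3, 93.7 and 138 CPM in control and 143, 143 and 150 CPM in *Piezo1* cKO. The groups of *Esyt1* did not overlap (log2 fold change 0.44, SE 0.16, edgeR adjusted p = 0.190), and without control library 3 it was called (edgeR adjusted p = 0.0311).

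Among the listed genes past the filter, the largest differences were in auxiliary subunits of the voltage-gated calcium channel of skeletal muscle. *Cacng1*, the gamma subunit, had 60.3, 21.8 and 42.6 CPM in control and 59.3, 95.9 and 89.1 CPM in *Piezo1* cKO. The groups overlapped, since control library 1 was slightly above *Piezo1* cKO library 1 (log2 fold change 1.01, SE 0.26, edgeR adjusted p = 0.0567). It was called at an adjusted p under 0.05 in 6 of the alternative settings and not in the others. Over the edgeR alternatives, the adjusted p of *Cacng1* ranged from 0.000183 without *Piezo1* cKO library 1 to 0.495 without *Piezo1* cKO library 2, and DESeq2 gave an adjusted p of 0.227. *Cacnb1*, the beta subunit, had 13.7 ± 5.99 CPM in control and 27.4 ± 6.14 CPM in *Piezo1* cKO, without overlap (SD, n = 3 each; log2 fold change 1.01, SE 0.34, edgeR adjusted p = 0.159). *Cacna1a*, which encodes a pore subunit best known from neurons, had 17.6 ± 3.48 and 12.7 ± 1.49 CPM, with overlapping groups. Of the 19 listed genes of voltage-gated channels, 9 were in the table and 4 were tested. *Cacna1a* was the only pore gene among those tested, so no pore of the skeletal muscle channel was read from this list.

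Of the purinergic channels, which open on binding extracellular ATP, *P2rx4* had 28.5 ± 6.51 CPM in control and 27.2 ± 10.2 CPM in *Piezo1* cKO, *P2rx7* 15.4 ± 3.74 and 12.2 ± 7.21 CPM, and *P2rx6* 5.84 ± 3.25 and 9.30 ± 6.59 CPM, each with overlapping groups. Among pumps and mitochondrial uniporter subunits, *Atp2a2*, the calcium pump of the endoplasmic reticulum, had 352 ± 26.6 CPM in control and 317 ± 7.51 CPM in *Piezo1* cKO, without overlap (edgeR adjusted p = 0.708). *Atp2b1*, a pump of the plasma membrane, had 230 ± 4.46 and 227 ± 15.4 CPM and the uniporter subunit *Smdt1* had 171 ± 23.7 and 175 ± 6.51 CPM, each with overlapping groups. The uniporter pore *Mcu* (26.9 ± 4.10 and 36.4 ± 11.0 CPM) and its regulator *Micu2* (66.6 ± 5.25 and 89.5 ± 24.1 CPM) had edgeR adjusted p-values of 0.563 and 0.332. Downstream of calcium, the calmodulin genes *Calm2* and *Calm3* had 962 ± 64.0 and 229 ± 24.3 CPM in control and 887 ± 93.5 and 232 ± 39.5 CPM in *Piezo1* cKO, each with overlapping groups. *Nfatc1*, a transcription factor activated by calcineurin, had 3, 13 and 17 counts in control and 17, 22 and 21 in *Piezo1* cKO, a log2 fold change of 0.95 (SE 0.35, edgeR adjusted p = 0.203). With 1 library left out, the log2 fold change of *Nfatc1* ranged from 0.60 (without control library 1, the lowest) to 1.38 (without control library 3).

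**Figure D4:**
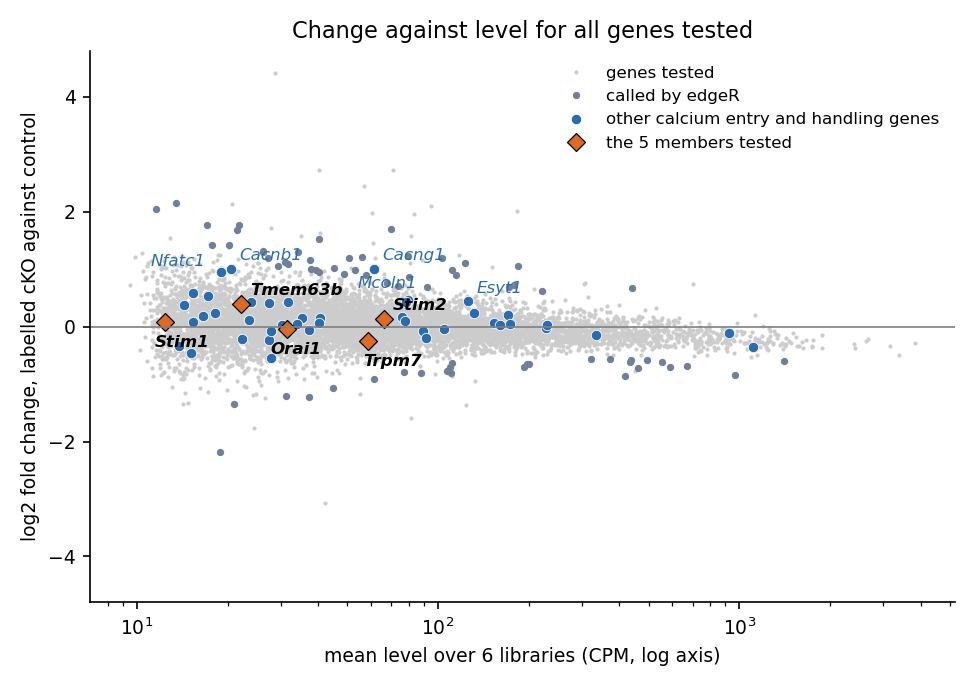
Log2 fold change in libraries labelled *Piezo1* cKO against control (vertical axis) by mean level over 6 libraries (CPM, log axis) for the 8551 genes tested in grey, with the 67 called genes darker. Orange diamonds are the 5 calcium entry genes past the filter, all between -0.25 and 0.40, and blue points the other listed calcium genes, none of which was called.

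The cells expressed the defining genes of the myogenic lineage in both groups. All 8 myogenic markers were tested, 0 were called by edgeR and 2 had an unadjusted p under 0.05. These 2 lay in opposite directions, each without overlap. *Cdh15* had 102 ± 30.1 CPM in control and 148 ± 12.2 CPM in *Piezo1* cKO (edgeR unadjusted p = 0.00194, adjusted p = 0.118). *Vcam1*, which encodes a marker of the sort, had 136 ± 14.3 and 99.6 ± 15.4 CPM (edgeR unadjusted p = 0.00640, adjusted p = 0.185). The summed level of the 8 markers was 4499, 3691 and 4199 CPM in control and 4299, 3254 and 3914 CPM in *Piezo1* cKO, and *Chrna1* was the most abundant. *Pax7* itself had 21.4 ± 7.17 CPM in control and 13.9 ± 6.82 CPM in *Piezo1* cKO (edgeR adjusted p = 0.481). Markers of differentiating myocytes stood apart between the groups. Of 8 listed, 7 were in the table and 6 were tested, all 6 had a log2 fold change above 0 without overlap, and 0 were called by edgeR although 5 had an unadjusted p under 0.05. Their summed level was 343, 121 and 295 CPM in control and 564, 1521 and 780 CPM in *Piezo1* cKO. *Acta1* was the most abundant of them, at 72.9 ± 16.7 and 293 ± 146 CPM. In the edgeR fit with no filter, used above for genes with few counts, 3 of the 7 were called higher, namely *Myh3* (1, 0 and 0 counts in control and 9, 35 and 4 in *Piezo1* cKO, adjusted p = 1.54e-08), *Tnnt3* (adjusted p = 3.37e-07) and *Mymk* (adjusted p = 0.00419). *Cacnb1* was higher in the same 3 libraries and *Cacng1* in 2 of them, and the part of the differentiating cells in those values was not tested.

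Markers of fibro-adipogenic cells stood apart in the other direction as a sum, with levels of 109, 226 and 180 CPM in control and 75.3, 51.2 and 67.1 CPM in *Piezo1* cKO. Of the 5 genes, 2 were tested. Groups overlapped for *Pdgfra*, with 4, 3 and 8 counts in control and 1, 1 and 3 in *Piezo1* cKO. They also overlapped for *Col1a1*, with 1, 7 and 17 counts in control and 8, 3 and 2 in *Piezo1* cKO. *Dcn*, which encodes the matrix proteoglycan decorin, was called lower (18, 23 and 37 counts in control and 8, 5 and 3 in *Piezo1* cKO, log2 fold change -2.17, SE 0.38, edgeR adjusted p = 0.000387), and *Cd34*, the most abundant, held 413 of the 594 counts of the list and had an edgeR adjusted p of 0.181, or 1.02e-11 in the fit with no filter. *Ly6a*, which encodes Sca1, lay the other way, with 2, 2 and 3 counts in control and 5, 8 and 9 in *Piezo1* cKO (edgeR fit with no filter, unadjusted p = 0.00982, adjusted p = 0.335). The sort for VCAM1-positive and Sca1-negative cells would remove Sca1-positive fibro-adipogenic cells before culture. Whether *Cd34* and *Dcn* were expressed here by fibro-adipogenic cells or by the MuSCs themselves was not tested. *Trpm7* and *Trpv2* were lower in the same libraries, and the part of any fibro-adipogenic cells in their values was not tested. Endothelial markers, led by *Tek*, summed to between 1.15 and 18.1 CPM per library, and *Pecam1* had at most 2 counts in a library. Immune markers, led by *Cd14*, summed to 29.4, 43.6 and 31.1 CPM in control and to 25.9, 29.4 and 27.1 CPM in *Piezo1* cKO, with a gap of less than 0.1 CPM between the groups. Mural markers, led by *Notch3*, summed to 8.41, 7.63 and 21.9 CPM in control and to 12.3, 29.4 and 25.8 CPM in *Piezo1* cKO, which overlapped. None of the mural markers passed the filter or was called in the edgeR fit with no filter, where *Rgs5* (0, 0 and 1 counts in control and 2, 4 and 6 in *Piezo1* cKO) had an unadjusted p of 0.00453 and *Notch3* (3, 4 and 7 counts in control and 6, 12 and 11 in *Piezo1* cKO) one of 0.0299. Schwann cell markers, led by *Mbp*, summed to between 2.56 and 12.6 CPM per library.

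**Figure D5:**
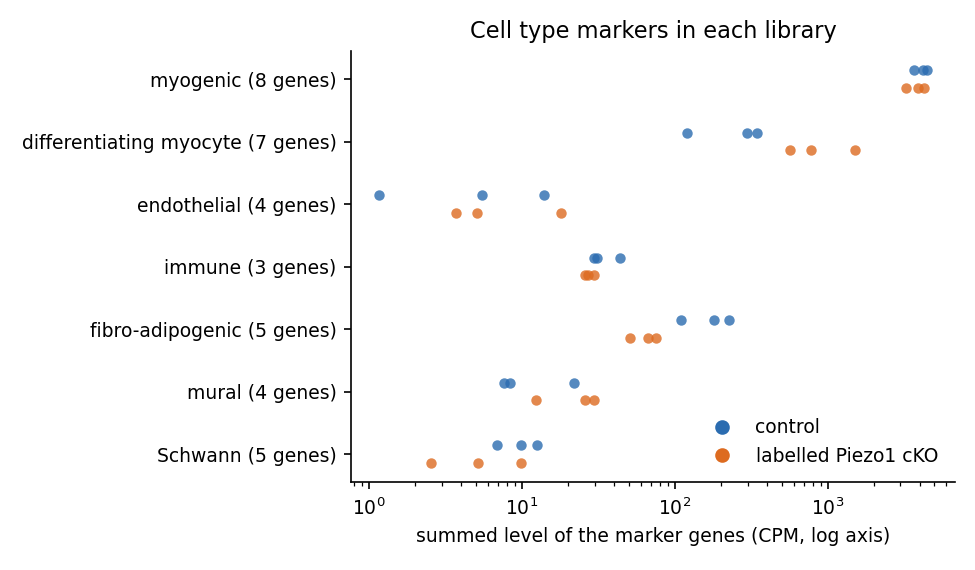
Summed level of each list of cell type markers in every library (CPM, log axis), with the number of genes in the table beside each list. Blue points are control and orange points libraries labelled *Piezo1* cKO; the groups are apart for differentiating myocyte markers, higher in the libraries labelled *Piezo1* cKO, and for fibro-adipogenic markers and, by a small gap, immune markers, lower in them.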

How the data were processed

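Total RNA of cultured MuSCs was reverse transcribed with barcoded oligo-dT primers, and per the labels the authors used STAR 2.7.9a, featureCounts 2.0.1, UMI-tools 1.1.1 and GRCm38. The deposited values are UMI counts per gene, not normalised, with 1 column per library. The settings for strand and for reads that map to several places were not given in the sources used here.

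Counts were analysed in R 4.3.3 with edgeR 4.0.16 (TMM normalisation, filterByExpr with a minimum count of 10, robust quasi-likelihood fit, Benjamini-Hochberg adjustment over all genes tested). Genes below the filter were read from the same fit on all genes with at least 1 count, in which low genes share nearly one estimate of the spread. CPM values are TMM-normalised. Ratios of pooled counts and pooled levels use library totals scaled by the TMM factors, and shares and floors are from raw counts and totals. Intervals of counts and shares are exact at the 95% level (SciPy 1.17.1) and, like the floor of 3 counts, cover counting error only. Total counts ranged from 726378 to 931168 per library. Libraries were grouped by their genotype label, and single values were compared by two-sided exact permutation tests.

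The alternatives were DESeq2 1.42.0, limma-voom (limma 3.58.1), DESeq2 size factors or total counts in edgeR, no filter, at least 10 counts in every library, an adjusted p under 0.1, the replicate number as a block, CPM per kb and each library left out in turn. Besides the 10 genes, those named were the 3 most abundant and the 2 tested genes with the smallest p of each list, the most abundant marker of each list, called markers and the genes most alike. The marker and gene lists, like the 10 genes, were chosen with earlier results of these data known. *Pax7* and *Pecam1* were named as defining markers, and all fibro-adipogenic markers in the table were named. *Cdh15* and *Vcam1* were named as the myogenic markers with an unadjusted p under 0.05. Some single genes of these lists are not reported here. Positions are from the GENCODE annotation of GRCm38, the primer sequences from the study's supplementary tables. The position and sequence of *Piezo2* are not reported here. The fit was tested on simulated counts.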

Additional observations from a re-analysis of the deposited data

How the results depend on the processing

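None of the 10 genes was called under any alternative that gave it an adjusted p, which DESeq2 did for only 2 of them. The count of all genes called was 67, against 28 with DESeq2, 129 with no filter, 124 at an adjusted p under 0.1, and from 6 (without *Piezo1* cKO library 2) to 174 (without *Piezo1* cKO library 1) when 1 library was left out. With total counts in place of TMM, the median of all genes tested lay at 0.08. Of the called genes, 73.1% were then higher in *Piezo1* cKO, against 59.7% with TMM. This share was 46.4% with DESeq2 and 82.8% without *Piezo1* cKO library 3. Of the listed calcium genes 0 were called, against 1 with limma-voom, with DESeq2 size factors, with at least 10 counts in every library, with no filter and at an adjusted p under 0.1, and from 0 to 1 when 1 library was left out. The median smallest log2 change that would have been called was 1.05, and from 1.02 to 1.64 with 1 library left out, the latter without *Piezo1* cKO library 2. Groups did not overlap for 2 of the 10 genes, for 1 with total counts, for 1 with DESeq2 size factors, and for 2 to 4 with 1 library left out. The 4 were reached without control library 1, where *Piezo1* and *Tmem63b* joined *Trpv2* and *Trpm7* and were higher in *Piezo1* cKO. Per kb of transcript, 7 of the 10 genes changed place in the order of levels. *Trpm7* and *Trpv2* kept their negative sign and *Tmem63b* and *Piezo1* their positive sign in every fit, with a range over single libraries left out of -0.36 (without *Piezo1* cKO library 2) to -0.10 (without *Piezo1* cKO library 1) for *Trpm7* (-0.25 with all 6), of -1.08 to -0.61 for *Trpv2* (-0.90 with all 6), of 0.21 to 0.78 for *Tmem63b* (0.40 with all 6) and of 0.12 to 0.93 for *Piezo1* (0.41 with all 6).

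The sign of small differences was not stable. The log2 fold change of *Orai1*, -0.04, was 0.0308 with limma-voom, 0.0301 with total counts, and from -0.33 to 0.27 with 1 library left out. With 1 library left out, *Stim2* ranged from -0.0029 to 0.23, *Stim1* from -0.0829 to 0.23, *Trpc1* from -0.86 to 0.0412, *P2rx4* from -0.34 to 0.19 and *P2rx7* from -0.62 to 0.0738. The cause was not tested for any of these.

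The labels number the libraries of both groups 1 to 3, but after subtraction of each group mean, libraries with the same number correlated at -0.14, -0.20 and 0.01 over genes, and 0 of 6 libraries correlated best with its own number, so they share only a number. With the replicate number as a block, edgeR called 46 genes and 0 of the 10.

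Depth limits these results: 5 of the 10 genes were below the filter, 3 had 10 counts or fewer over all 6 libraries, and differences of less than about 1.66-fold could not have been called for any of the 5 tested.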

Other observations

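The tested genes whose levels most resembled those of the 2 most abundant calcium entry genes were listed as a description, by Pearson's r of log2 CPM over the 6 libraries. For *Stim2* these were *Elovl3* (r = 0.985), *Kat14* (r = 0.980) and *Nhlrc3* (r = 0.978), and 32 genes had an r above 0.9. For *Trpm7* they were *Nup43* (r = 0.991), *Gm8292* (r = 0.990) and *Rpf2* (r = 0.981), and 59 genes had an r above 0.9. The points share the libraries, their depth and the 2 groups, and among 8551 genes some high values of r over 6 points occur for any gene.

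*Trpm4*, a calcium-activated cation channel that conducts sodium rather than calcium, was singled out after its values were seen. It had 2, 3 and 1 counts in control and 5, 5 and 6 in *Piezo1* cKO, without overlap. In the edgeR fit with no filter its log2 fold change was 1.44 (SE 0.73, adjusted p = 0.662).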
